A study of Homo sapiens with 6 samples.

Results

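ESM1 and 9 other genes of vessel sprouting and of the angiopoietin and TIE receptor system were followed in cells of the human embryonic stem cell line H1 at day 8 of hematopoietic differentiation. The 10 genes were found by their symbols, each on a single row, among 56595 different symbols on 58364 rows of expression values. They are ESM1, APLN, UNC5B, PDGFB, ANGPT1, ANGPT2, TEK, TIE1, ROBO4 and PLVAP. ESM1 was chosen by its large difference between MSX2-/- and wild-type (WT) cells. Its values are therefore a description, and no test of that difference is given for it. The other 9 were selected as known companions of ESM1 in tip cells and vessels, at a time when results of the same comparison were known. The question was whether the difference in ESM1 came with differences in other genes of the tip cell program.

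RNA-seq had been made from WT cells (2 libraries) and MSX2-/- cells (4 libraries), the latter being 2 replicates of each of 2 clones, called here 1# and 2#. The cells had passed through activin A with BMP4 and then VEGF with bFGF, and by the study's text the RNA of both WT and MSX2-/- was taken from CD31+ cells, which carry the surface protein PECAM1. MSX2 encodes a homeobox transcription factor, and it was edited with CRISPR/Cas9 delivered by lentivirus and puromycin selection, so each MSX2-/- line is 1 clone, while no control vector is named for WT. The labels name CD31 for the MSX2-/- libraries alone, and they speak of a HAND1 overexpression that no library label repeats. The methods text speaks in general of independent experiments. No source used here says that both libraries of a line came from separate cultures, so p-values measure the spread between these libraries, which may be technical.

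Tip cells are the endothelial cells at the front of a growing vessel sprout. They sense VEGF through KDR, extend filopodia and show DLL4 to the stalk cells behind them, where Notch holds back the tip cell program. The same cells secrete guidance and recruitment signals, and the TIE receptors with their angiopoietin ligands set how firmly the new vessel is held together. ESM1, also called endocan, is a secreted proteoglycan and a standard marker of tip cells.

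Beside the members, the libraries were read for the cell types they held. All 12 endothelial markers reached 1 FPKM in some library, where FPKM is fragments per kilobase of transcript, scaled by the mapped fragments of the library, and their summed FPKM was 3034 to 3669 in WT and 2320 to 3455 in MSX2-/-. Of 15 blood cell markers, 14 reached 1 FPKM, with sums of 176 in each WT library and 339 to 702 in MSX2-/-, and PTPRC stayed under 1 FPKM in all libraries. Of 12 mesenchymal and mural markers, 10 reached 1 FPKM, with sums of 1223 to 1625 in WT and 1436 to 1567 in MSX2-/-. DCN and POSTN stayed under 1 FPKM. Of 6 pluripotent stem cell markers, 4 reached 1 FPKM, with sums of 63.9 to 74.3 and 82.8 to 101, and NANOG and SOX2 stayed under 1 FPKM. The sum of 6 hepatic and endoderm markers, all of which reached 1 FPKM, was 51.6 to 79.3 in WT and 12.2 to 250 in MSX2-/-. The edited gene MSX2 itself stood at 3.64 and 1.44 FPKM in WT and at 18.0, 5.62, 31.8 and 6.69 FPKM in MSX2-/-, a log2 difference of 1.99 (SE 0.69, limma adjusted p = 0.309, and 0.0107 with the replicate block), higher in 4 of 4 libraries against WT of the same number. An edit that changes a reading frame need not lower the RNA, and the FPKM of MSX2 therefore does not check the labels. Each WT library is the partner of both clones, so the 4 matched differences of a gene rest on 2 WT values and are not independent. Libraries are given below in the order WT replicates 1 and 2, then 1# replicates 1 and 2, then 2# replicates 1 and 2.

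Differences between MSX2-/- and WT were tested with limma, a linear model fitted across all genes, on log2(FPKM + 1). It covered the 15895 genes whose 6 libraries averaged 0.5 FPKM or more. The threshold was a Benjamini-Hochberg adjusted p under 0.05. A log2 difference on this scale understates the change of genes near 1 FPKM. Among the genes tested 153 were higher and 51 lower in MSX2-/-, which is 0.963% and 0.321% of them, and the median log2 difference of all was 0.0081. Libraries with the same replicate number deviated together, so a second fit carried the replicate number as a block. That fit called 971 genes (6.11%) higher and 595 (3.74%) lower.

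Of the 9 genes other than ESM1, 2 rose in MSX2-/- (APLN and PDGFB) and 1 fell (TIE1) without the block. With the block 2 rose and 2 fell, since TEK passed as well. Because the 9 were drawn up with results of this comparison known, these counts describe them and support nothing further. In 4 of the 9 all MSX2-/- libraries lay above both WT libraries, beside 12.1% of all genes tested, and in 3 all lay below, beside 9.19%. UNC5B and ANGPT1 overlapped between the groups. The median log2 difference of the 9 was 0.29.

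**Figure D1:**
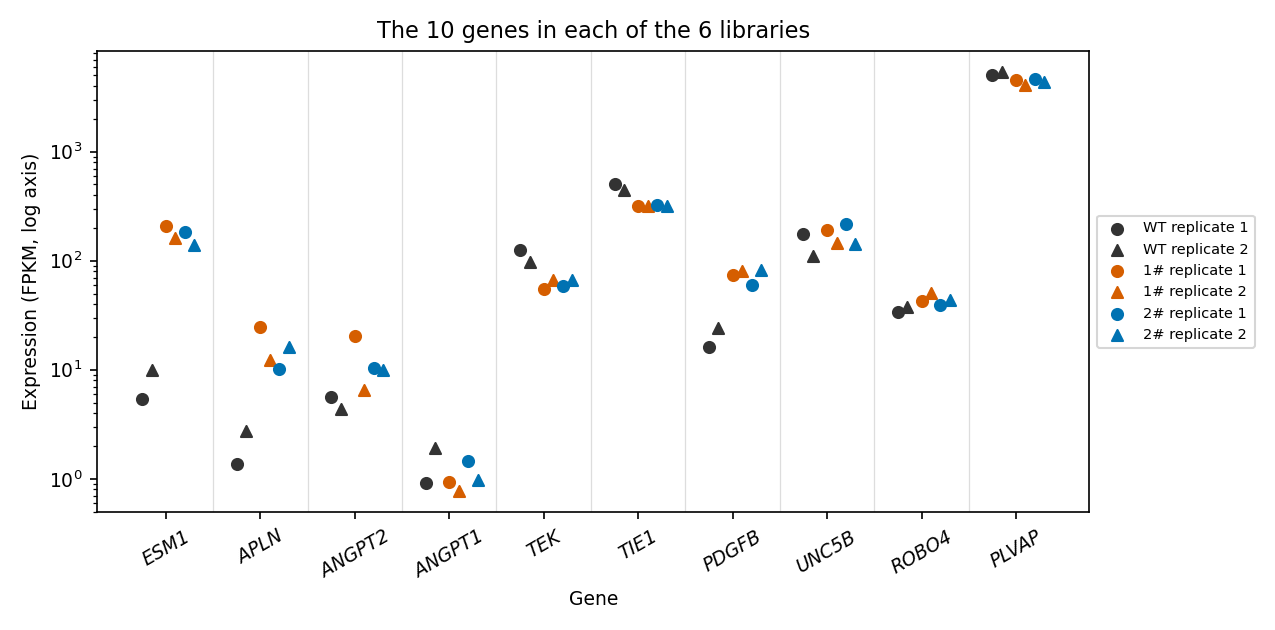
Expression of the 10 genes in each of the 6 libraries, as FPKM on a log axis. Circles are replicate 1 and triangles replicate 2, in black for WT, orange for clone 1# and blue for clone 2#. The ESM1 points of MSX2-/- lie between 139 and 208 FPKM, far above the WT points at 5.34 and 10.03, while those of ANGPT1 and UNC5B mix with WT.

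ESM1 (ENSG00000164283.12) spans chr5:54977864-55022671 of GRCh38 (minus strand). Its FPKM was 5.34 and 10.03 in WT, 208 and 162 in clone 1#, and 184 and 139 in clone 2#. The groups stood far apart, and replicate 1 was the higher one in both clones but the lower one in WT. The means were 7.68 ± 3.32 FPKM for WT (SD, n = 2) against 173 ± 29.9 FPKM for MSX2-/- (SD, n = 4), a ratio of 22.6. The difference of log2(FPKM + 1) was 4.37, the value ranked 3 from the highest among the 15895 genes tested. Within replicate numbers, the 4 MSX2-/- libraries differed from WT by 5.05, 3.88, 4.87 and 3.66 on the log2 scale. Leaving out WT replicate 1 gave 3.97 and leaving out WT replicate 2 gave 4.77. In bulk libraries such as these, more cells of a type and more RNA per cell cannot be told apart. As a rough reference to endothelial content, the ratio of ESM1 to CDH5 FPKM was 0.0126 to 0.0264 in WT and 0.516 to 0.906 in MSX2-/-, where CDH5 is the adhesion protein of endothelial junctions. An annotated transcript of the same strand, AC034238.1, shares exon bases with ESM1, so reads could be divided between the pair.

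Promoter sequences of ESM1, APLN, TEK and TIE1 are shown because the comparison turns on these genes, in both directions. Sequences are from RefSeq (GRCh38.p14), 5′ to 3′ on the gene's own strand and upstream of its RefSeq start. Capitals mark matches, on either strand, to ACGTG (the core bound by HIF, the hypoxia factor), GGAAG (a core of ETS factors, a large family active in endothelium) and TGGGAA (the core of RBPJ, the DNA-binding partner of Notch). TAATTG, a homeodomain core of the MSX kind, and TGTTTAC, a forkhead core, were searched as well. For APLN and TIE1 the window is the 250 bases before the start (chrX:129654957-129655206, minus strand, and chr1:43300732-43300981, plus strand). For TEK it is the part outside annotated exons (chr9:27108975-27109140, plus strand). For ESM1 only the 30 bases next to the start are printed (chr5:54985594-54985623, minus strand), since exons of longer annotated transcripts overlap its window. The printed ESM1 bases may themselves lie within such an exon.
ESM1: taaaactcataaACGTGtaggcagaggctc
APLN: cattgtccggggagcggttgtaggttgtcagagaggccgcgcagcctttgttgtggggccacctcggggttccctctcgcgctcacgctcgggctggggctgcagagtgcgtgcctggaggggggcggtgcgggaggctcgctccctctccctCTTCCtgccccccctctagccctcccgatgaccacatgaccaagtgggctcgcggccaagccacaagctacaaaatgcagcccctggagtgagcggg
TEK: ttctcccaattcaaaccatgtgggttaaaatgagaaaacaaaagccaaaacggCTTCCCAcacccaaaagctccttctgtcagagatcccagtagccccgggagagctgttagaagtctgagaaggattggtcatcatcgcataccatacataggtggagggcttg
TIE1: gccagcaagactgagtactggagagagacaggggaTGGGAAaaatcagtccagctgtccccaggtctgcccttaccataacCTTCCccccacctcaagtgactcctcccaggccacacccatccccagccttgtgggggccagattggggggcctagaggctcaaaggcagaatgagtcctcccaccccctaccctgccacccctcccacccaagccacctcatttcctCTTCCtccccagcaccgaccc
The ESM1 window of 250 bases held 1 match in all, ACGTG starting 18 bases before the start. APLN held 1 match to GGAAG on the opposite strand. TIE1 held GGAAG at 2 places and TGGGAA at 1. TEK held the same numbers, with 1 GGAAG overlapping its TGGGAA and 1 lying beyond the bases printed. These letters are common, since among 35116 promoters of the same length GGAAG stood in 65.1%, TGGGAA in 20.8%, ACGTG in 18.5%, TAATTG in 6.7% and TGTTTAC in 2.98%. Of the 10 genes 6 were searched, ROBO4 and PLVAP among them with GGAAG at 2 places each, and no TAATTG or TGTTTAC was found in any of the 6 windows. The remaining genes, PDGFB, UNC5B, ANGPT1 and ANGPT2, were not searched. A match is a description of letters and not of a bound site.

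APLN encodes apelin, a secreted peptide that tip cells make and that acts on the receptor APLNR. Its gene (ENSG00000171388.11) spans chrX:129645259-129654937 of GRCh38 (minus strand). APLN stood at 1.36 and 2.75 FPKM in WT, 24.7 and 12.2 in clone 1#, and 10.1 and 16.1 in clone 2#. All MSX2-/- libraries lay above both WT libraries, with the highest value in 1# replicate 1. The mean was 2.05 ± 0.983 FPKM for WT (SD, n = 2) against 15.8 ± 6.41 FPKM for MSX2-/- (SD, n = 4), a ratio of 7.69. APLN rose by 2.42 on the log2 scale (SE 0.37, limma adjusted p = 0.0394), higher in 4 of 4 libraries against WT of the same number, by 1.82 to 3.44. The call was lost whichever 1 of the 6 libraries was left out (adjusted p = 0.0599 to 0.269), at log2 differences of 2.09 to 2.76.

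APLNR, the G protein-coupled receptor of apelin and of the peptide APELA, went the other way from its ligand. Its FPKM was 329 and 391 in WT and 77.1, 92.9, 78.9 and 93.8 in MSX2-/-. The groups did not overlap, and the 4 MSX2-/- libraries were close to each other. APLNR fell by 2.06 on the log2 scale (SE 0.13, limma adjusted p = 0.00535), and it passed without any 1 of the 6 libraries (adjusted p = 0.0230 to 0.0428). The ratio of APLN to APLNR FPKM, which is a ratio of levels per length, was 0.00412 to 0.00702 in WT and 0.129 to 0.320 in MSX2-/-. APELA was at 0.432 and 0.283 FPKM in WT and 5.26, 1.39, 10.5 and 0.747 FPKM in MSX2-/-, with a log2 difference of 1.62 (SE 0.75, limma adjusted p = 0.486) that did not pass.

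PDGFB encodes a chain of platelet-derived growth factor, which endothelial cells release to draw pericytes to the vessel wall through the receptor PDGFRB. The gene (ENSG00000100311.16) spans chr22:39223359-39244751 of GRCh38 (minus strand). PDGFB was at 16.2 and 24.02 FPKM in WT, 73.9 and 79.9 in clone 1#, and 60.2 and 82.5 in clone 2#. The lowest MSX2-/- library exceeded the higher WT library by more than the whole range within WT. The mean was 20.1 ± 5.53 FPKM for WT (SD, n = 2) against 74.1 ± 9.96 FPKM for MSX2-/- (SD, n = 4), a ratio of 3.69. PDGFB rose by 1.85 on the log2 scale (SE 0.20, limma adjusted p = 0.0152), and the matched differences were 1.69 to 2.12, higher in 4 of 4. The call held without WT replicate 2 (limma adjusted p = 0.0382) and without 2# replicate 1 (0.0315). It was lost without WT replicate 1 (0.0920), 1# replicate 1 (0.0654), 1# replicate 2 (0.0708) or 2# replicate 2 (0.0606).

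The receptor PDGFRB and the sister ligand PDGFA stood higher in all MSX2-/- libraries too, but neither passed without the block. PDGFRB was at 0.948 and 2.10 FPKM in WT and 6.46, 4.62, 4.45 and 5.85 FPKM in MSX2-/- (log2 difference 1.36, SE 0.25, limma adjusted p = 0.0673, and 0.0174 with the block). PDGFA was at 4.07 and 3.34 FPKM in WT and 15.1, 10.2, 11.6 and 8.58 FPKM in MSX2-/- (log2 difference 1.38, SE 0.23, limma adjusted p = 0.0527, and 0.00446 with the block). PDGFA also passed with a pseudocount of 0.1, with a mean of at least 1 FPKM and with rescaled libraries (limma adjusted p = 0.0423, 0.0464 and 0.0489), and PDGFRB relative to the endothelial markers (limma adjusted p = 0.0448). Both were picked for mention after their values were seen, as the partners of PDGFB. The ratio of PDGFB to PDGFRB FPKM was 11.4 to 17.1 in WT and 11.4 to 17.3 in MSX2-/-, so the ranges coincided. PDGFRB is also a mural marker. Of the 12 genes of the mesenchymal and mural list 10 were tested. Without the block 2 rose and none fell, beside 0.963% and 0.321% of all genes. With it 5 rose and none fell, beside 6.11% and 3.74% of all genes. In all MSX2-/- libraries 5 lay above WT and none below, beside 12.1% and 9.19% of all genes, and 5 overlapped. COL1A1 rose by 2.30 (SE 0.25, limma adjusted p = 0.0152) and TAGLN by 1.94 (SE 0.26, limma adjusted p = 0.0300) on the log2 scale, while CSPG4 differed by 2.01 (SE 0.35, limma adjusted p = 0.0558, and 0.00730 with the block). RGS5 (0.07), COL1A2 (-0.07), THY1 (-0.33) and COL3A1 (-0.54) did not pass in either fit. The part of mural cells in the PDGFB and PDGFRB values was not tested.

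**Figure D2:**
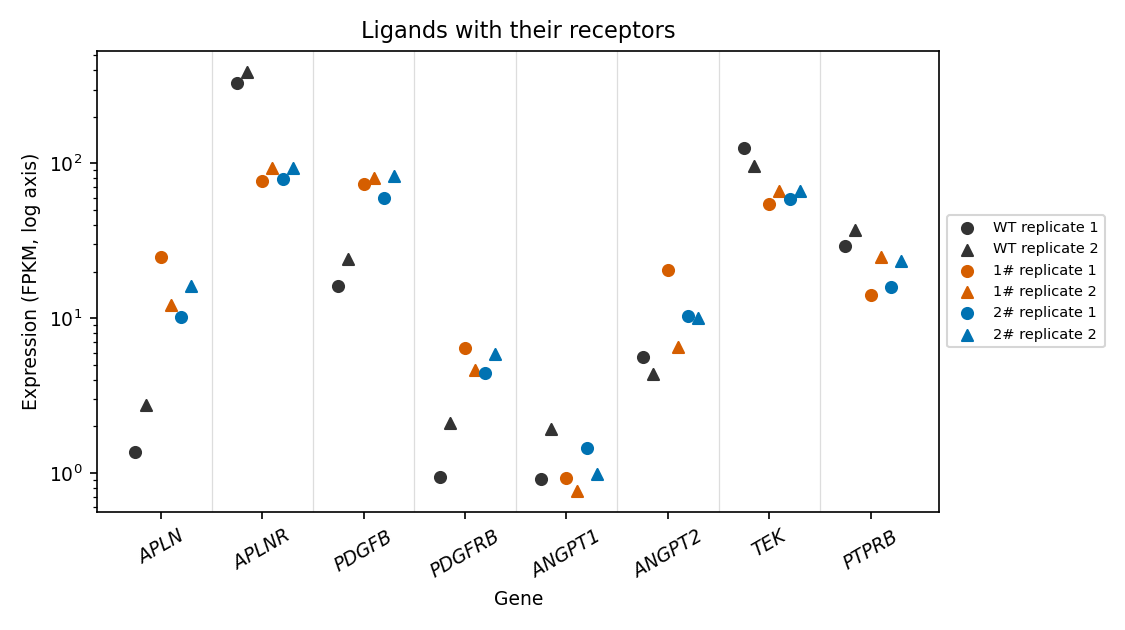
Ligands with their receptors in each of the 6 libraries, as FPKM on a log axis, with circles for replicate 1 and triangles for replicate 2. Black is WT, orange clone 1# and blue clone 2#. APLN and APLNR move apart between WT and MSX2-/-, PDGFB and PDGFRB shift upward together, and PTPRB lies lower in MSX2-/- (14.0 to 25.03 FPKM) than in WT (29.4 and 37.3).

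The angiopoietins signal through TEK, also called TIE2. ANGPT1 is its activating ligand, made mainly by mural and mesenchymal cells, and ANGPT2, stored in endothelial cells, acts as an antagonist or a weak agonist and loosens the vessel. In GRCh38 ANGPT1 (ENSG00000154188.9) spans chr8:107249482-107498055 and ANGPT2 (ENSG00000091879.13) chr8:6499651-6563409, both on the minus strand.

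ANGPT2 was at 5.58 and 4.36 FPKM in WT, 20.5 and 6.56 in clone 1#, and 10.3 and 9.96 in clone 2#. All MSX2-/- libraries lay above WT, but the lowest by little, and 1# replicate 1 was far above the other 3. The means were 4.97 ± 0.864 FPKM (SD, n = 2) and 11.8 ± 6.01 FPKM (SD, n = 4), a ratio of 2.38. The log2 difference of 1.005 (SE 0.39) did not pass in limma (adjusted p = 0.379, and 0.0872 with the block). Exons of ANGPT2 overlap those of MCPH1 on the other strand, and since the use of strand in counting is not stated, reads of the pair may not have been told apart.

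ANGPT1 was low throughout, at 0.909 and 1.91 FPKM in WT and 0.930, 0.764, 1.45 and 0.981 FPKM in MSX2-/-. The groups overlapped. The log2 difference was -0.23 (SE 0.24, limma adjusted p = 0.845), and its sign differed between the replicate numbers, with 2 matched differences above 0 and 2 below. The ratio of ANGPT2 to ANGPT1 FPKM was 2.28 to 6.14 in WT and 7.11 to 22.02 in MSX2-/-.

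TEK (ENSG00000120156.20) spans chr9:27109141-27230175 of GRCh38 (plus strand). Its FPKM was 126 and 96.6 in WT, 54.98 and 66.2 in clone 1#, and 58.8 and 66.6 in clone 2#. All 4 MSX2-/- libraries lay below both WT libraries and close together. The mean went from 112 ± 21.1 FPKM (SD, n = 2) to 61.6 ± 5.69 FPKM (SD, n = 4), 1.81 times lower. The log2 difference of -0.84 (SE 0.15) missed the threshold in limma (adjusted p = 0.0615) and passed with the block (adjusted p = 0.0170), with matched differences of -1.19 to -0.53, lower in 4 of 4. The ratio of ANGPT2 to TEK FPKM was 0.0441 to 0.0451 in WT and 0.0991 to 0.373 in MSX2-/-.

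TIE1, the partner receptor of TEK with no angiopoietin bound directly, spans chr1:43300993-43323108 of GRCh38 on the plus strand (ENSG00000066056.13). It was at 505 and 446 FPKM in WT, 318 and 316 in clone 1#, and 323 and 315 in clone 2#. The 4 MSX2-/- values, from 315 to 323 FPKM, lay close together and below WT. The mean went from 475 ± 41.6 FPKM (SD, n = 2) to 318 ± 3.77 FPKM (SD, n = 4), 1.49 times lower. TIE1 fell by 0.58 on the log2 scale (SE 0.09, limma adjusted p = 0.0382), lower in 4 of 4 matched libraries. The call was lost without any 1 of the 6 libraries (adjusted p = 0.0683 to 0.195, log2 differences -0.66 to -0.49).

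TEK and TIE1 moved beside other endothelial genes. Of the 12 endothelial markers 2 fell without the block, CLDN5 by 2.28 (SE 0.21, limma adjusted p = 0.0121) and CDH5 by 0.65 (SE 0.10, limma adjusted p = 0.0453) on the log2 scale, none rose, and the list's median was -0.23. With the block 4 fell and 2 rose, the latter being SOX17 (0.44, limma adjusted p = 0.0301) and TAL1 (0.64, limma adjusted p = 0.0253). Of all genes tested 0.321% fell and 0.963% rose without the block, and 3.74% fell and 6.11% rose with it. The ratio of TIE1 to CDH5 FPKM was 1.18 to 1.19 in WT and 1.17 to 1.38 in MSX2-/-, and that of TEK to CDH5 was 0.255 to 0.299 and 0.230 to 0.247. When each library was scaled to the 12 endothelial markers, an alternative chosen after seeing the data, the median log2 difference of all genes became 0.29. Relative to the markers TIE1 differed by -0.24 (limma adjusted p = 0.512) and TEK by -0.50 (limma adjusted p = 0.200), while APLN (2.68, limma adjusted p = 0.0311) and PDGFB (2.17, limma adjusted p = 0.00521) kept their calls. ESM1 differed by 4.68 on that scale.

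**Figure D3:**
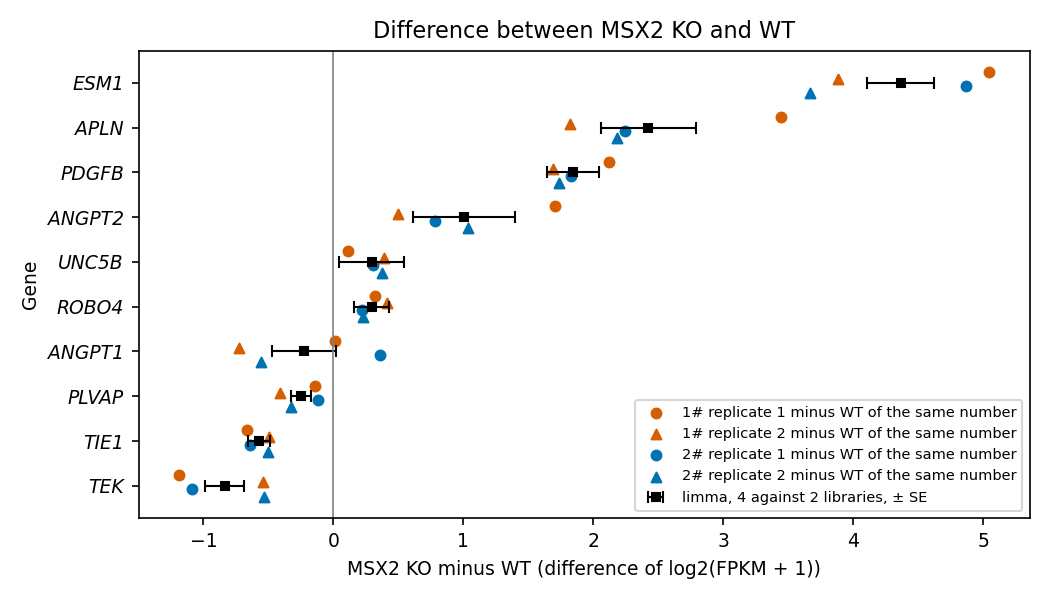
Difference between MSX2-/- and WT for the 10 genes, on the log2(FPKM + 1) scale. Coloured points are each MSX2-/- library minus its WT partner of equal number, which both clones share. Black squares with bars are the limma estimate of 4 libraries against 2 with its SE. ESM1, APLN, PDGFB, ANGPT2, UNC5B and ROBO4 have all 4 points above 0, TEK, TIE1 and PLVAP all 4 below, and ANGPT1 has points on both sides.

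The guidance receptors showed smaller differences. UNC5B, a netrin and FLRT receptor of tip cells that also binds ROBO4, spans chr10:71212570-71302864 of GRCh38 on the plus strand (ENSG00000107731.12). It was at 177 and 110 FPKM in WT and 191, 145, 219 and 143 FPKM in MSX2-/-. The groups overlapped, and replicate 1 was above replicate 2 in WT and in both clones. The log2 difference of 0.29 (SE 0.25) did not pass in limma (adjusted p = 0.776, and 0.0727 with the block), although all 4 matched differences were above 0, from 0.11 to 0.39. Without WT replicate 2 it was -0.045.

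ROBO4, an endothelial roundabout receptor that stabilises vessels, spans chr11:124883691-124898500 of GRCh38 on the minus strand (ENSG00000154133.14). It was at 33.7 and 37.4 FPKM in WT and 42.3, 50.1, 39.3 and 43.9 FPKM in MSX2-/-. The lowest MSX2-/- library lay just above the higher WT library. The log2 difference of 0.29 (SE 0.13) did not pass (limma adjusted p = 0.484, and 0.0813 with the block). The antisense transcripts AP003501.1 and AP003501.2 share exon bases with ROBO4.

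PLVAP, which forms the diaphragms of fenestrae and caveolae, was the most abundant of the 10 genes. It spans chr19:17351448-17377350 of GRCh38 on the minus strand (ENSG00000130300.8). PLVAP was at 5015 and 5408 FPKM in WT and 4553, 4075, 4612 and 4309 FPKM in MSX2-/-. MSX2-/- lay below WT in every library, by little. The log2 difference of -0.25 (SE 0.08) did not pass (limma adjusted p = 0.254, and 0.0727 with the block), and relative to the endothelial markers it was 0.090.

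In order of mean FPKM, WT ran PLVAP, TIE1, UNC5B, TEK, ROBO4, PDGFB, ESM1, ANGPT2, APLN and ANGPT1. Neighbours whose ranges overlapped in WT were UNC5B with TEK, ESM1 with ANGPT2, and APLN with ANGPT1. In MSX2-/- the order was PLVAP, TIE1, UNC5B, ESM1, PDGFB, TEK, ROBO4, APLN, ANGPT2 and ANGPT1, so ESM1 stood in place 4 where it had been in place 7. There the ranges of UNC5B and ESM1, of PDGFB and TEK, and of APLN and ANGPT2 overlapped.

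The edited clones were compared with each other. This comparison was not independent of the choice of genes, which was made with results of these data known. None of the 10 genes passed between 2# and 1# in limma with 3 groups, and neither did any of the 15895 genes tested (0%), of which 225 had an unadjusted p under 0.05. With 2 libraries a clone the intervals were wide. The log2 difference of 2# minus 1# was -0.20 (95% interval -0.98 to 0.59) for ESM1, -0.42 (-1.49 to 0.66) for APLN, -0.12 (-0.75 to 0.50) for PDGFB and -0.19 (-1.41 to 1.03) for ANGPT2. For TEK it was 0.05 (-0.44 to 0.54) and for TIE1 0.01 (-0.28 to 0.30). These intervals are per gene and unadjusted, so they are no limits of detection. Clone differences inside them remain possible, and after adjustment over all genes larger ones could also go without a call.

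The difference between MSX2-/- and WT was also compared between the replicate numbers. Each number has a single WT library, so the intervals hold the spread between the clones and none between WT libraries. For ESM1 it was smaller in replicate 2 than in replicate 1 by 1.18 on the log2 scale (interaction -1.18, 95% interval -1.69 to -0.68), and for TEK the fall was smaller in replicate 2 (interaction 0.60, 95% interval 0.31 to 0.90). Neither passed adjustment over all genes in limma (adjusted p = 0.314 for ESM1 and 0.323 for TEK). Of the 10 genes 0 passed, beside 3 of 15895 (0.0189%), and 1817 genes had an unadjusted p under 0.05.

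Other genes of the tip cell program were taken from a list of 24, of which 23 were tested. None of the 23 passed in limma without the block, where 9 had an unadjusted p under 0.05, beside 1873 of all 15895 genes. With the block 6 rose and 4 fell, beside 6.11% and 3.74% of all genes. The median log2 difference was -0.11, beside 0.0081 for all genes tested. In all MSX2-/- libraries 4 of the 23 lay above WT and 5 below, beside 12.1% and 9.19% of all genes, and 14 overlapped. RAMP3, which was not tested, was listed at 0 in 5 of the 6 libraries.

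The highest differences of that list belonged to HLX, a homeobox transcription factor (1.53, SE 0.54, limma adjusted p = 0.317, and 0.00132 with the block), IGFBP3, a secreted binder of insulin-like growth factors (1.19, SE 0.92, limma adjusted p = 0.739), and COL4A1, a basement membrane collagen (0.68, SE 0.15, limma adjusted p = 0.105, and 0.00715 with the block). HLX was at 4.41 and 10.8 FPKM in WT and 12.9, 34.4, 14.1 and 36.5 FPKM in MSX2-/-, with replicate 2 above replicate 1 in every line. IGFBP3 was at 9.90 and 8.83 FPKM in WT but at 44.0 and 77.2 FPKM in replicate 1 and 9.997 and 7.13 FPKM in replicate 2 of the clones, so its difference rested on replicate 1.

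The lowest were ADM, the vasoactive peptide adrenomedullin (-0.97, SE 0.26, limma adjusted p = 0.177), EFNB2, an arterial and tip cell ephrin ligand (-0.57, SE 0.20, limma adjusted p = 0.325, and 0.0209 with the block), and KDR, the main VEGF receptor (-0.50, SE 0.14, limma adjusted p = 0.213, and 0.0112 with the block). KDR was at 666 and 779 FPKM in WT and 489, 541, 434 and 590 FPKM in MSX2-/-, so the groups did not overlap. DLL4, the Notch ligand of tip cells, was mentioned after its values were seen. It was at 345 and 192 FPKM in WT and 271, 152, 258 and 148 FPKM in MSX2-/-, with a log2 difference of -0.37 (SE 0.35, limma adjusted p = 0.806, and 0.0125 with the block), and of 0.052 without WT replicate 1.

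Notch and stalk cell genes formed a list of 12, all tested. HEY2 and JAG1 rose and none fell without the block, beside 0.963% and 0.321% of all genes. With the block 3 rose and 1 fell, beside 6.11% and 3.74% of all genes. The median log2 difference was -0.01, beside 0.0081 for all genes tested. In all MSX2-/- libraries 4 of the 12 lay above WT and 1 below, beside 12.1% and 9.19% of all genes, and 7 overlapped. HEY2, a Notch target of arterial endothelium, was at 30.6 and 27.5 FPKM in WT and 63.9, 64.1, 54.7 and 66.0 FPKM in MSX2-/- (1.07, SE 0.12, limma adjusted p = 0.0180). JAG1, a Notch ligand made by stalk cells, was at 9.52 and 8.88 FPKM in WT and 18.5, 17.0, 15.5 and 18.2 FPKM in MSX2-/- (0.84, SE 0.14, limma adjusted p = 0.0479). For both genes the MSX2-/- libraries were well clear of WT. JAG1 passed in none of the 6 limma fits that left out 1 library (adjusted p = 0.0862 to 0.224), and HEY2 in 1 of them (0.0396 to 0.102). The calls added with the block were ENG (0.70, SE 0.12, limma adjusted p = 0.0524, and 0.00977 with the block) and NRARP (-0.46, SE 0.30, limma adjusted p = 0.674, and 0.0170 with the block). HES1 (0.04) and HEY1 (-0.06) passed in neither fit. These genes are named after their values were seen.

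The ligands, receptors and partners of the 10 genes formed a list of 31, of which 25 were tested. APLNR, described above, was the only one to pass without the block, and with the block 2 rose and 3 fell, beside 6.11% and 3.74% of all genes. The median log2 difference was 0.08. In all MSX2-/- libraries 5 of the 25 lay above WT and 5 below, beside 12.1% and 9.19% of all genes, and 15 overlapped. The calls added with the block were PDGFA, PDGFRB, PTPRB and CAV1. PTPRB, the phosphatase that counters TEK, was at 29.4 and 37.3 FPKM in WT and 14.0, 25.03, 15.9 and 23.5 FPKM in MSX2-/- (-0.77, SE 0.26, limma adjusted p = 0.308, and 0.0104 with the block). CAV1, the coat protein of caveolae, was at 15.3 and 13.4 FPKM in WT and 7.99, 4.02, 7.96 and 5.50 FPKM in MSX2-/- (-1.10, SE 0.27, limma adjusted p = 0.153, and 0.0117 with the block). Both are named because they changed their call, after their values were seen.

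Genes that VEGF is known to induce in endothelium formed a list of 13, of which 11 were tested. None passed in limma without the block, where 3 had an unadjusted p under 0.05, beside 1873 of all 15895 genes. With the block 2 rose and 1 fell, beside 6.11% and 3.74% of all genes. The median log2 difference was 0.54, beside 0.0081 for all genes tested. In all MSX2-/- libraries 3 of the 11 lay above WT and none below, beside 12.1% and 9.19% of all genes, and 8 overlapped. NR4A1, an orphan nuclear receptor of the immediate early response, was at 8.10 and 22.1 FPKM in WT and 45.0, 109, 30.8 and 91.0 FPKM in MSX2-/- (2.10, SE 0.59, limma adjusted p = 0.212, and 0.00169 with the block). HBEGF, an EGF family ligand, differed by 0.89 (SE 0.19, limma adjusted p = 0.0974, and 0.0229 with the block), and EGR1, an immediate early zinc finger factor, by 0.84 (SE 0.51, limma adjusted p = 0.628). At the low end STC1, a secreted glycoprotein, differed by -0.67 (SE 0.69, limma adjusted p = 0.833, and 0.0327 with the block), ADAMTS1, a secreted protease, by -0.47 (SE 0.66, limma adjusted p = 0.894), and DUSP5, a phosphatase of MAP kinases, by -0.17 (SE 0.27, limma adjusted p = 0.921). These 3 low differences turned sign when 1 WT library was left out, STC1 to 0.049 without replicate 1, and ADAMTS1 to 0.42 and DUSP5 to 0.053 without replicate 2.

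The genes whose pattern over the 6 libraries was most like that of ESM1 were ranked by Pearson's r of log2(FPKM + 1) among the tested genes. They were NXF3 (0.999), NOTUM (0.998), LXN (0.997), RHAG (0.997) and SMTNL2 (0.996). LXN is also on the list of other tip cell genes. RHAG encodes a glycoprotein of the red cell membrane, and it was at 7.45 and 8.87 FPKM in WT and 35.4, 35.4, 33.2 and 32.7 FPKM in MSX2-/-. Of the 10 genes PDGFB (r = 0.974) and APLN (r = 0.956) came closest, at ranks 120 and 216 among all genes tested. TIE1 (r = -0.991) and TEK (r = -0.976) ran most nearly opposite. With 6 libraries in 2 separate groups, such an r holds the difference between the groups and describes these libraries only. Blood cell markers differed between the groups as well. Of the 14 tested 5 rose and none fell without the block, beside 0.963% and 0.321% of all genes tested. In all MSX2-/- libraries 7 lay above WT and none below, beside 12.1% and 9.19% of all genes, and 7 overlapped. The median log2 difference was 1.02. The part of blood cells in the ESM1 values was not tested.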

How the data were processed

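RNA-seq libraries of 2 WT and 4 MSX2-/- samples were used, grouped by the labels. The table columns number the MSX2-/- clones 1 and 2 and the sample labels 7 and 10. Clones 1 and 2 are written here as 1# and 2#, the names in the study's text, on the assumption that these are the same, and they were not matched to the labels. The authors deposited FPKM values per gene symbol, not pooled over replicates. The submitters' processing notes list BWA, Bowtie, RSEM and hg19, the series text names BWA and TopHat with Cufflinks, and the sources used here do not say which of these made the table, with what annotation or filters, or whether strand was used. FPKM removes the number of reads, so total depth is unknown and no counting interval is given. The spacing of low values put depth relative to WT replicate 1 at 1.01 to 1.185, and FPKM summed to 555286 to 617120 a library.

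Of the rows, 1 held headings and was left out. The test was limma (version 3.58.1, R 4.3.3), with empirical Bayes moderation and trend, on log2(FPKM + 1), for the 15895 genes averaging 0.5 FPKM or more, with Benjamini-Hochberg adjustment over all of them. The study's methods give a test between 2 groups with no block. WT, 1# and 2# share replicate numbers in the labels, and deviations of libraries with the same number correlated across genes (r = 0.508, 0.540 and 0.636 for the 3 pairs of lines), so the numbers pair the libraries and the blocked value is printed where it changes a call. The script was tested on simulated data.

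The 10 genes and all lists were chosen with earlier results of these data known. Named were the 10 genes, MSX2, the 5 genes most like ESM1 and, of each list other than markers, the genes that passed or else the 3 highest and 3 lowest; exceptions are marked in the text. Gene positions are from GENCODE v29 (GRCh38) and promoters from RefSeq, matched by symbol and independent of the build behind the table. Alternatives were the replicate block, another pseudocount (0.1), no filter or a mean of at least 1 FPKM, rescaled libraries, no trend, 3 groups, each clone alone, each library left out and, added after seeing the data, scaling to the 12 endothelial markers.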

Additional observations from a re-analysis of the deposited data

How the results depend on the processing

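Over all genes 204 passed. The count was 1566 with the replicate block, 125 with no filter on low values (65 higher and 60 lower), 6 with 3 groups, 0 and 1 with clone 1# and clone 2# alone, 19 to 82 with 1 library left out, and 334 relative to the 12 endothelial markers (319 higher and 15 lower, beside 153 and 51 before that scaling, which moved the median of all genes to 0.29). Of the 9 genes other than ESM1, 3 passed, against 1 with no filter, 0 with 3 groups, 0 with either clone alone and 0 to 1 with 1 library left out. Other tip cell genes went from 0 to 10 with the block. Notch and stalk cell genes went from 2 to 4 with the block, to 1 with no filter, with rescaled libraries or without the trend, to 0 with 3 groups or either clone alone, and to 0 to 1 with 1 library left out. Partners of the 10 genes went from 1 to 5 with the block, to 2 with a pseudocount of 0.1, a mean of at least 1 FPKM, rescaled libraries or scaling to the markers, and to 0 with either clone alone. VEGF-responsive genes went from 0 to 3 with the block. Some alternatives differ by how they were built. The fits of 1 clone and those with 1 library left out have fewer libraries. The fit with 3 groups estimates a further mean, and more genes are tested without the filter. For the others the cause was not tested. Of the 10 genes, 3 turned sign: UNC5B to -0.045 and ANGPT1 to 0.079 without WT replicate 2 (with 1 library left out they ranged from -0.045 to 0.63 and from -0.53 to 0.079), and PLVAP to 0.090 relative to the markers. Of 32 other named genes that were followed over the alternatives, 4 turned sign: DLL4 and STC1 without WT replicate 1 (0.052 and 0.049), ADAMTS1 without WT replicate 2 (0.42), and DUSP5 without WT replicate 2 (0.053) and relative to the markers (0.16). The marker genes RGS5, COL1A2, THY1, COL3A1, SOX17 and TAL1 were not among these 32, and neither were ENG, NRARP, HES1 and HEY1. With 1 library left out HES1 ranged from -0.68 to 0.77 and HEY1 from -0.50 to 0.38. ESM1 kept its direction in all 16 alternatives, at 3.97 to 4.77 on the log2 scale. Over the 16, APLN lost its call in 10, PDGFB in 7 and TIE1 in 12, and TEK gained one in 1, the replicate block. The block changed no other call among the 10 genes.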
